A study of Homo sapiens with 10 samples.

Results

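A-rich intronic peaks in genes under 50 kb are poly(A) 3′-seq peaks that lie inside introns of short protein-coding genes and end just before a genomic stretch rich in adenine. A peak was counted here when its summit lay in an intron of a protein-coding gene shorter than 50 kb (GENCODE 44, GRCh38) and at least 7 of the 10 genomic bases past its 3′ edge were A on the strand of the gene. The summit also had to lie over 2 kb from the canonical transcription start site and outside every exon. It could not lie from 200 bp before to 600 bp after any annotated transcript end, or have a gene on the other strand. Of 178837 peaks in the list, 7023 (3.93%) met this rule, and they lay in 3239 genes. The rule used gene structure and genome sequence and no measured value of the peaks. Of the 10959 intronic peaks of genes under 50 kb that met every other part of the rule, these were 64.1%, and the other 3936, with fewer than 7 A, are called A-poor below. The 7023 peaks are called members.

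The libraries came from IMR-32, a human neuroblastoma cell line, in which a short hairpin RNA targeted the transcriptional kinase CDK12 (sh22 or sh98), the related kinase CDK13 (sh701 or sh704) or, as control, GFP. Each of the 5 constructs had 2 libraries, 10 in all. The authors called peaks once on the merged reads, and the list holds no value per library, so no construct can be compared with another here, knockdown of the targeted genes cannot be checked, and library batch and construct cannot be told apart. Because the list has no strand, each peak took the strand of its gene. CDK12 (106 kb), CDK13 (149 kb) and the gene of their partner cyclin K, CCNK (53.9 kb), are longer than the limit and hold no peak of the set.

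Nuclear mRNA precursors are cut and polyadenylated where the cleavage machinery recognises a hexamer, most often AATAAA or ATTAAA, a short distance upstream, together with U- or GU-rich sequence downstream. In 3′-seq the library is primed with oligo(dT), which pairs with a poly(A) tail and can also pair with a run of adenines encoded in the genome, known as internal priming. A list of 3′ ends can therefore hold both kinds of end, and which kind each member is was not tested. Alu elements, the abundant primate retrotransposons, carry such a run at their 3′ end and are frequent in introns of short, GC-rich genes. Intronic polyadenylation is of interest in this system because CDK12 is known to promote elongation by RNA polymerase II past such sites.

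The sequences below run 5′ to 3′ on the gene strand, from GRCh38. In the first set, the members with the highest summit pileup (the number of extended reads covering the summit), capitals mark the 10 bases past the 3′ edge in which A was counted. The pileups of these peaks were 65 for EIF3J, 51 for TOP2A, 40 for SNRPB2, 39 for PSMC1, 39 for FUBP1 and 39 for DDX1.

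EIF3J, intron 3, chr15:44551483-44551512 (+): acggcaacagaagaaaaggcAAGAAGAAAT

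TOP2A, intron 28, chr17:40395454-40395483 (-): acaaagattagaaaagaaacAGAAAAGAGA

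SNRPB2, intron 3, chr20:16737314-16737343 (+): ttttgctgacaaagaaaagaAAAAAGAAAA

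PSMC1, intron 2, chr14:90260146-90260175 (+): caactagagtggggaaaaagAAGAAGAAAA

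FUBP1, intron 10, chr1:77964290-77964319 (-): gaagaaatggagagatgatcAAAAAAATAC

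DDX1, intron 1, chr2:15594067-15594096 (+): gactgtctcaaaaaaaaacaAAAGAAAAGA

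The intron numbers give the intron with the summit. All but the DDX1 sequence lay in an exon next to that intron, as described further on, and apart from FUBP1, which has a run of 7 A, their marked bases hold G as well as A. The highest members whose 3′ edge lay in the intron itself, after DDX1, were in METAP2 (pileup 33) and TIMM23 (pileup 33), besides a read-through transcript, and their sequences are shown in the same way.

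METAP2, intron 3, chr12:95484469-95484498 (+): taagagatacctatttcttaAATTAAAAAA

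TIMM23, intron 6, chr10:45994005-45994034 (+): tgaaatgatgaagtaatgaaACAAAATTAA

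A second set shows members with the core hexamer of the poly(A) signal, here in capitals, starting 35 to 15 bp upstream of the 3′ edge, for the highest pileups. ZRANB2 had a pileup of 36 with the hexamer starting 15 bp upstream, HADHB 28 with 19 bp, and ZBTB49 24 with 25 bp. The 3′ edge of the ZRANB2 peak lay in the next exon, with the summit 3 bp before it. Those of HADHB and ZBTB49 lay in the intron.

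ZRANB2, intron 5, chr1:71072173-71072202 (-): ATTAAAggaagttgaagataaagaatcaga

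HADHB, intron 15, chr2:26288271-26288300 (+): AATAAAgaaattaaaataaataaaaaataa

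ZBTB49, intron 5, chr4:4313292-4313321 (+): AATAAAaagaaaagttaattcaaagaaaga

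The last set shows members with the end of an Alu element, whose last bases before the A-rich tail are in capitals. Their pileups were 24 for CEP68, 23 for PPP6C and 22 for GTF3C2.

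CEP68, intron 1, chr2:65064724-65064753 (+): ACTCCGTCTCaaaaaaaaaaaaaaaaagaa

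PPP6C, intron 2, chr9:125164225-125164254 (-): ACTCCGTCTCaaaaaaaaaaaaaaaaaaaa

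GTF3C2, intron 1, chr2:27346350-27346379 (-): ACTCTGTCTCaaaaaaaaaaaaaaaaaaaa

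In these Alu members the word is followed directly by A, with the run broken by another base in CEP68. The A-rich ends of the members with a core hexamer are broken by other bases in each of the 3 shown.

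Around the 3′ edge, the members stood apart from A-poor intronic peaks on the downstream side, where the rule placed them, and kept this beyond the 10 bases of the rule. Adenine made up 86.5% of bases 1 to 10 past the edge, which the rule fixed, and 70.4% of bases 11 to 20, which it did not. In A-poor peaks bases 11 to 20 were 38.0% A, and in peaks at the transcript ends (transcription end sites, TES) of genes under 50 kb 28.1%. In A-rich intronic peaks of genes over 300 kb they were 68.8% A. A tract that meets the rule can run on past the 10 bases, so the rule favours a high value here. A-rich positions without a peak were not measured for it. From bases 21 to 30 the share in members was 39.9%, so the A-rich stretch faded within about that distance. Thymine at bases 11 to 20, where the downstream element of a poly(A) site can lie, was 11.2% in members and 35.1% at TES peaks. In A-poor peaks it was 25.2%, and in A-rich peaks of genes over 300 kb 11.7%. The high share of adenine in members leaves little room for thymine there. At bases 21 to 30 thymine was 23.3% in members and 33.1% at TES peaks, and at bases 31 to 60 it was 28.3% and 28.8%. Upstream, adenine was 41.3% in members from 20 bp before the edge to the edge, and 28.4% from 50 to 21 bp before it. TES peaks had 33.1% A in that second window, which holds the poly(A) hexamer.

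**Figure D1:**
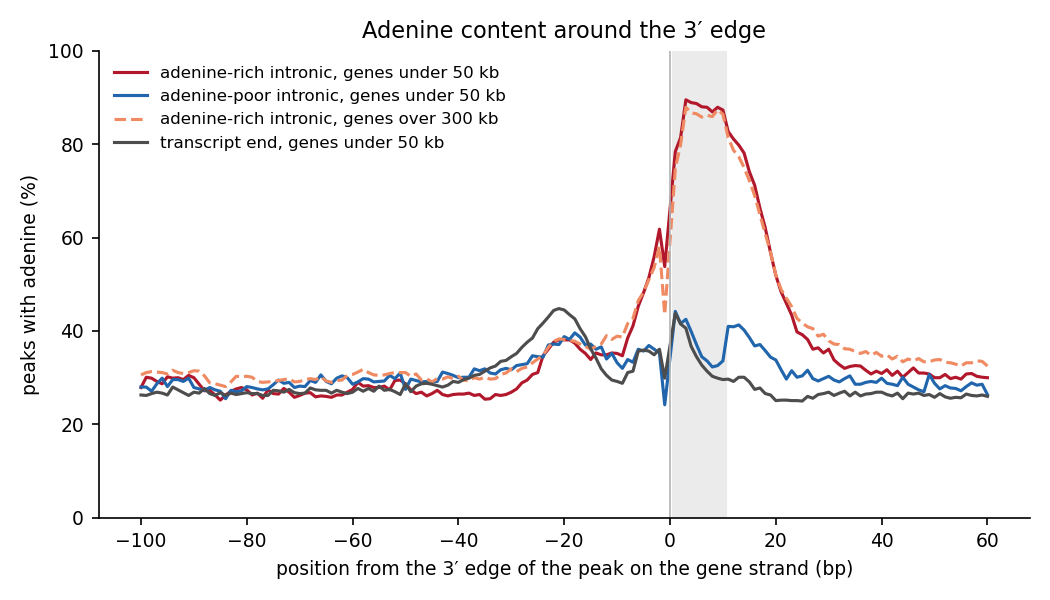
Share of peaks with adenine (%) at each position from 100 bp upstream to 60 bp downstream of the 3′ edge on the gene strand, for the 4 classes of peaks, with the 10 bases used by the rule shaded. The members (red) and the A-rich intronic peaks of genes over 300 kb (dashed) have 86.5% and 84.8% adenine over the shaded bases, whereas the TES peaks (grey) have their adenine maximum about 20 bp upstream.

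The core hexamer of the poly(A) signal was rare next to members. AATAAA or ATTAAA started 35 to 15 bp upstream of the 3′ edge in 323 members, or 4.60% (95% Wilson interval 4.13% to 5.11%). A-poor peaks of the same gene class had it in 22.6%, a difference of -18.0 percentage points (95% Newcombe interval -19.4 to -16.6), and TES peaks in 47.0%. As a background, 4.76% of all eligible intronic positions of genes under 50 kb with at least 7 A downstream had a core hexamer in the same window, close to the share of the members. A-rich intronic peaks of genes over 300 kb (22366 peaks) had it in 6.71%, so the members were 2.11 points below them (difference -2.11, -2.68 to -1.50). All these intervals cover counting error over peaks only, and peaks of 1 gene share their source.

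The position of the hexamer differed as well. At TES peaks the most frequent start was 22 bp upstream of the edge, with 4.26 starts per 100 peaks, and at A-poor intronic peaks 25 bp upstream, with 2.18. In members it was 7 bp upstream, with 1.08 starts per 100 peaks, where the hexamer ends next to the A-rich stretch itself. The wider set of 12 hexamers used by the authors, searched within 100 bp upstream on the gene strand, was present in 33.8% of members and in 60.2% of A-poor peaks (difference -26.4 points, -28.2 to -24.5). Members also lay below the A-rich peaks of genes over 300 kb by that measure, at 46.7% for the long genes (difference -12.9 points, -14.2 to -11.6).

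Alu ends were frequent among the members. One of 3 words of the Alu 3′ end lay on the gene strand within 100 bp upstream to 10 bp downstream of the edge in 1475 members, or 21% (20.1% to 22%). The words have 10 bases, and the capitals in the Alu sequences above show those with CG and with TG in the middle, the other having CA there. The A-poor peaks had such a word in 2.13%, a difference of 18.9 points (17.8 to 19.9). The difference was 6.76 points (6.05 to 7.46) with a shorter word, CCGTCTC, and 8.77 points (4.02 to 15.4) among peaks with a −log10 q-value of 20 or more. On the opposite strand, where the element would end in T rather than A on the transcript, a word lay near 22 members (0.313%). These words lie just before an A-rich tail, so the A limit of the rule by itself favours peaks that have them. Among all eligible A-rich intronic positions of these genes, with or without a peak, 12.6% had a word, and among all eligible positions 1.52%. Part of the difference from A-poor peaks was therefore set by the rule. The forms with CG, TG and CA were found in 438, 592 and 447 members. The share was 13.7% in A-rich peaks of genes over 300 kb, 7.31 points below that of the members (6.27 to 8.37).

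Both features moved with the number of adenines inside the set. Of 1477 members with 7 A, 7.65% had a core hexamer and 5.62% an Alu word. Of 2283 members with all 10 bases A, 0.657% had a core hexamer and 35.4% an Alu word. The members with 8 A (1801) and 9 A (1462) lay between for the Alu word, at 14.3% and 22.2%, and had a core hexamer in 8.05% and 3.42%. Pileup did not follow the same order, with a median of 9 reads at each of 7, 8, 9 and 10 A.

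Just outside the limit, 1023 intronic peaks had 6 A, with a median pileup of 10 reads, a core hexamer in 10.6% and an Alu word in 3.23%. Just inside it, the 1477 members with 7 A had a median of 9 reads. The median pileup thus differed by a single read across the limit. The highest peak with 6 A, with a pileup of 82 and its 3′ edge in an exon, was in DDX1, which also held one of the highest members.

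Members with an Alu word had other properties in common. A run of at least 15 A within 50 bp downstream was present in 44.8% of them and in 23.3% of the other members (difference 21.5 points, 18.7 to 24.2). Any of the 12 hexamers lay upstream of 13.4% of them, against 39.3% of the others. A pileup of at least 10 reads was reached by 47.7% of the members with an Alu word and by 45.7% of those without, a difference of 1.93 points (-0.926 to 4.80) that was not larger than counting error. Motifs of 5′ splice sites (GGTGAG or GGTAAG or the overlapping GTGAGT, which U1 snRNA can bind) lay within 500 bp upstream of 29% of all members and 28.7% of A-poor peaks, with a difference of 0.310 points (-1.47 to 2.07).

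To see which A-rich stretches carry a peak, every eligible intronic position of genes under 50 kb was scanned. The eligible introns summed to 115 Mb, and 2.16% of their positions had at least 7 A in the next 10 bases. These positions formed 607764 separate tracts, and 6754 of them (1.11% of all tracts tested) held the 3′ edge of a member. The edges of the other 269 members were not at eligible positions, in most cases because they lay in an exon.

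The share rose with the length of the run. Where the longest pure run was 2 to 6 A, 0.317% of 543258 tracts held a member, and where it was 7 to 9 A 3.27%. At 10 to 14 A the share was 9.08%, at 15 to 19 A 13.3% and at 20 to 24 A 27.7%. The longest runs, from 25 to 73 A, held a member in 486 of 1401 tracts, or 34.7% (32.2% to 37.2%). The intervals of neighbouring classes did not overlap, from the shortest runs to the longest.

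Longer tracts also offer more positions, from 3.01 per tract in the shortest class to 28.4 in the longest. Counted per 1000 positions, the 6 classes held 1.05, 3.13, 6.29, 7.34, 12.5 and 12.2 edges, so the rise was smaller on this scale and stopped at runs of 20 A. Tracts with a run of at least 15 A made up 2.1% of all tracts and 36.8% of those with a member. Most such tracts held none, since 19.5% of 12758 had one.

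At equal run length, an Alu word did not go with a higher share throughout. In the shortest class, 2 to 6 A, 0.768% of tracts with the word held a member against 0.303% of those without. Per 1000 positions these tracts held 1.38 edges with the word and 1.03 without. Per tract, those with the word held a member 1.43 points more often at runs of 7 to 9 A (0.786 to 2.15), but they also offered 15.3 positions each against 9.88. Per 1000 positions they held 2.97 edges against 3.16. At 10 to 14 A they did so less often, with a difference of -1.94 points (-2.91 to -0.908), and at 20 to 24 A of -5.95 points (-8.92 to -2.93). Per 1000 positions the values at 10 to 14 A were 4.89 with the word and 6.85 without. The sign at 7 to 9 A thus depended on the scale, and the sign at 10 to 14 A did not. Alu words lay next to 4.81% of all tracts and 21.8% of the tracts with a member, but next to 39.5% of tracts with at least 15 A and 34.9% of those with a member. Tracts with a member thus had both more Alu words and longer runs than all tracts, and the part of run length in the Alu share was not tested. Reads that map to several Alu copies may have been lost or shared among them, and their part in these differences was not tested.

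The members were also more frequent in genes with a larger peak at their annotated end, which was used as a rough measure of expression. Genes without a TES peak held 10.0 members per Mb of eligible intron, and genes whose highest TES pileup was 1 to 9 reads held 31.4. With 10 to 19 reads the density was 75.1, with 20 to 29 reads 91.9 and with 30 to 49 reads 92.3 per Mb. In the 446 genes with 50 to 114 reads it was 83.6 per Mb, so it did not rise further above 20 reads. A-poor peaks went from 12.9 per Mb without a TES peak to 54.0 per Mb in the highest class, and were denser than members only where no TES peak was called.

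The same held for single tracts of similar length. Of tracts with a run of at least 15 A, 3.92% held a member in genes without a TES peak (3.30% to 4.66%), 12.2% at 1 to 9 reads and 23.5% at 10 to 19 reads. The share was 27.3% at 30 to 49 reads (25.7% to 29%) and 20.9% at 50 reads or more (17.9% to 24.4%), and these last intervals did not overlap. In the pooled list a lower level of the RNA and fewer cells with it cannot be told apart. The median local background of the members was 0.425 reads without a TES peak, 0.320 at 1 to 9 reads and 0.480 at 10 to 19 reads, and reached 0.750 in the highest class. It thus fell over the first step, where the density of members rose, and rose with the class from there. Its part in the number of peaks called was not tested.

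**Figure D2:**
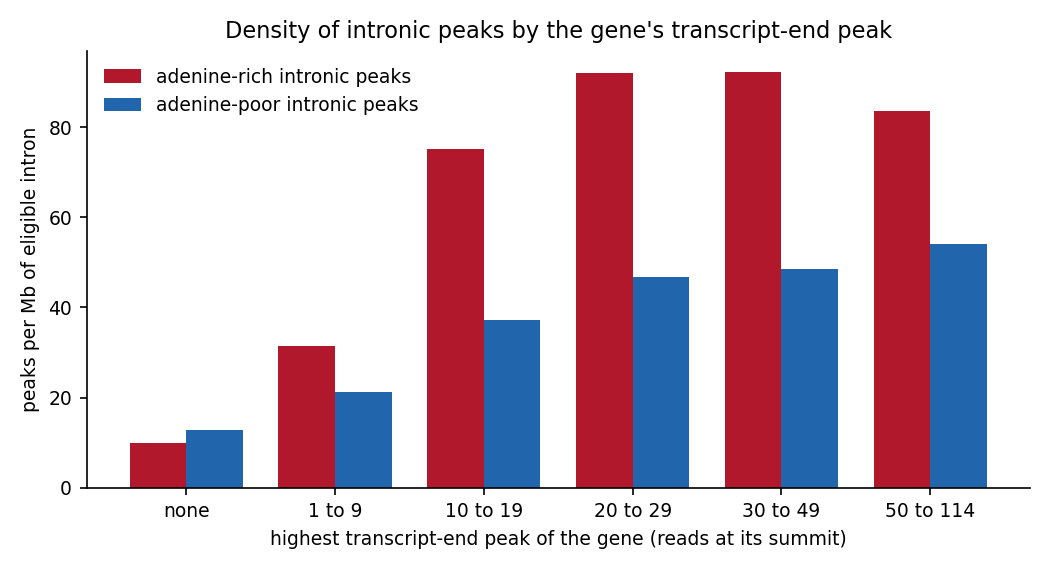
Intronic peaks per Mb of eligible intron in genes under 50 kb, by the highest summit pileup (reads) among the TES peaks of the gene, for members (red) and A-poor peaks (blue). Members rise from 10.0 per Mb without a TES peak to 92.3 per Mb at 30 to 49 reads, and A-poor peaks reach 54.0 per Mb in the highest class.

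The share and density of members also went with gene length. Members were 48.8% of the eligible intronic peaks in genes under 10 kb (42.6% to 55.0%), 60% at 10 to 20 kb and 66.1% at 40 to 50 kb (64.5% to 67.6%). Their density rose from 26.4 to 69.0 per Mb over the same range, and the share of A-rich positions from 1.98% to 2.21%. A TES peak was present in 1221 of 2226 genes under 10 kb and in 853 of 1109 at 40 to 50 kb. Length and expression were thus mixed, and their parts were not tested. Beyond the limit, the density of A-rich peaks was 71.3 per Mb at 50 to 100 kb and 72.0 at 100 to 300 kb. In genes over 300 kb, A-rich peaks were 76.3% of intronic peaks at a density of 54.3 per Mb.

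The peaks themselves were small. Pileup at the summit ranged from 3 to 65 reads in members, with a median of 9 and an interquartile range from 7 to 12. The peak caller removes reads with the same start unless told otherwise, and no such setting was stated, so a pileup may count distinct starts only. Fold enrichment over local background had a median of 6.10 (2.90 to 22.8), and width a median of 103 bp (100 to 597 bp), close to the 100 bp to which each read was extended. Peaks wider than 150 bp made up 15.3% of members and 25.1% of A-poor peaks (difference -9.76 points, -11.4 to -8.17).

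A pileup of at least 10 reads was reached by 46.1% of members and 48.2% of A-poor peaks. The difference of -2.11 points (-4.06 to -0.165) was close to counting error, and without peaks whose 3′ edge lay in an exon it was -1.40 points (-3.43 to 0.616). At 20 reads or more the gap was clearer, with 3.8% of members and 7.52% of A-poor peaks (difference -3.72 points, -4.68 to -2.80). At TES peaks, 42.9% reached 20 reads. Members were higher than A-rich peaks of genes over 300 kb, of which 29.9% reached 10 reads (difference 16.2 points, 14.9 to 17.5). With only the highest peak kept per gene and class the difference turned, to -17.5 points (-20.9 to -13.8), an alternative in which long genes give the highest of more peaks. Median local background was 0.580 reads in members and 0.350 in those of the long genes, and its part in this difference was not tested.

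Pileup was not higher at longer runs. A pileup of at least 10 reads was reached by 48.1% of members with a longest run of at most 6 A within 50 bp (46.0% to 50.3%) and by 39.2% of those with 20 to 50 A (35.3% to 43.3%). Without the members whose 3′ edge lay in an exon, described next, the shares were 45.4% (43.1% to 47.6%) and 39.3% (35.3% to 43.3%), and these intervals overlapped. The longest runs were 38 A in MED1, a Mediator subunit, where the pileup was 7, and 36 A both in SLC6A16, a transporter of the SLC6 family, where it was 13, and in SFRP1, a secreted Wnt antagonist, where it was 6. In SRSF11, a splicing factor, a run of 35 A went with a pileup of 16, and a run of 35 A in ENSG00000268750 with a pileup of 9. Long runs were thus more often occupied, as above, but not by higher peaks.

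Some intronic peaks had a 3′ edge in an exon although the summit lay in the intron, more often A-poor peaks (9.6%) than members. Among the members they were a small group. There were 238 of them (3.39%), in 227 genes, of which 203 ended in coding sequence and 235 had all 10 downstream bases in the exon. Their summits lay a median of 17 bp before the next exon, against 2810 bp for the other members, and 210 of the 236 in a canonical intron lay within 100 bp of it. These peaks ran a median of 37 bp into the exon. MACS2 extends a read along the genome and takes no account of introns, so a read that starts in an exon near its 5′ border reaches into the intron after extension, whether or not the RNA was spliced. Whether the reads of these peaks came from spliced RNA was not tested.

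These peaks were the highest of the set. Their median pileup was 13.5 against 9 reads, and 76.9% reached 10 reads against 45.1% of the other members (difference 31.8 points, 26 to 36.9). A pileup of at least 20 was reached by 23.9% against 3.10%. They made up 9 of the 10 highest members, 28 of the highest 50 and 39 of the highest 100. An Alu word lay near 2.1% of them and 21.7% of the others, and a run of at least 15 A near 2.94% and 28.7%. The highest TES pileup of their genes had a median of 30 reads, and that of the genes of other members 25.

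The 10 highest members show this in single genes. In EIF3J, a subunit of the translation initiation factor complex eIF3, the peak of 65 reads had its summit 3 bp before exonic sequence and 72 bp of exon under it, with a local background of 1.89 reads. TOP2A, the DNA topoisomerase of dividing cells, had 51 reads with 76 bp of exon, and SNRPB2, a protein of the U2 snRNP, 40 reads with 73 bp. PSMC1, a proteasome ATPase, and FUBP1, a single-stranded DNA-binding regulator of MYC, had 39 reads each, with 51 and 57 bp of exon. The ribosomal protein gene RPL12 and SFPQ, a splicing-associated RNA-binding protein, had 37 reads each. SRRM2, a protein of nuclear speckles, and ZRANB2, a zinc finger splicing factor, had 36 reads each. Genes such as RPL12 have processed copies elsewhere in the genome, and reads may be shared with them.

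The exception among the 10 was DDX1, a DEAD-box RNA helicase gene that lies next to MYCN and is known to be amplified with it in some neuroblastomas. Its 3 members had 39, 30 and 27 reads, all with an intronic edge. The local background at the highest was 7.16 reads, the largest of any member, so the fold was only 4.90, below the median of the set. Of 7 members with a background over 4 reads, 3 were in DDX1, and the gene held 11 A-poor peaks besides. Copy number was not measured, and its part in these pileups was not tested.

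Other members with an intronic edge and a high pileup were in GATA3, JPT1, METAP2 and TIMM23. GATA3, a transcription factor of the noradrenergic state of neuroblastoma, had 31 reads upstream of its canonical start, in an intron of a longer transcript. JPT1 had 31 reads in intron 1 at a fold of 7.31. METAP2, a methionine aminopeptidase, had 33 reads in intron 3 with a fold of 13.7. TIMM23, a subunit of the mitochondrial import channel, had 33 reads in intron 6, but a near-identical copy of this gene exists and the reads may belong to either.

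Most genes with members held few. Of 6390 genes under 50 kb with eligible intron and a TES peak, 3027 (47.4%) held at least 1 member and 965 (15.1%) at least 3. There were 1341 genes with 1 member, 721 with 2, 456 with 3 and 243 with 4. The share of genes with a member rose with length, from 8.03% under 10 kb to 81.9% at 40 to 50 kb. Genes without a TES peak held 332 members.

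The genes with the most were BCL7A and PITPNA, with 10 each. BCL7A, a subunit of the SWI/SNF chromatin remodelling complex, is 42.6 kb long (chr12:122019422-122062044, plus strand), and its members lay in introns 1 to 4 with pileups of 13, 15, 12, 11, 16, 7, 19, 11, 13 and 11 reads in gene order. None of these stood far from the others, and 3 had an Alu word. The fifth, with 16 reads, was the only one with its edge in an exon. PITPNA, a phosphatidylinositol transfer protein, had pileups from 6 to 17 reads (median 11) in introns 1, 2, 3, 4, 7 and 10, with 1 Alu word.

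HACD3, an enzyme of very-long-chain fatty acid synthesis, had 9 members and no A-poor peak. Their pileups of 12, 16, 19, 18, 19, 12, 18, 14 and 17 reads were above the median of the set throughout, and 5 of the 9 lay in intron 1. SINHCAF, a component of the SIN3 histone deacetylase complex, had 9 with pileups from 9 to 26 reads. DTX1, an E3 ligase linked to Notch signalling, had 9 from 6 to 13 reads at a TES pileup of 11, and SGPP1, a sphingosine-1-phosphate phosphatase, 9 from 5 to 9 reads.

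FBXO28, an F-box protein, had 9 members from 6 to 15 reads, 5 of them with an Alu word. CCDC126 had 9 from 5 to 17 reads. MPP3, a membrane-associated guanylate kinase, and PI4KB, a phosphatidylinositol 4-kinase, had 8 each, at 3.40 and 3.25 members per 10 kb of eligible intron. They were taken from 23 genes with 8 members by that density. Across these 10 genes core hexamers were present at 1 member, in DTX1.

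Members were counted in gene families as well, among genes with eligible intron and a TES peak, to be read against 47.4% of all such genes and 8.12 members per 100 kb of eligible intron. Of 46 genes of cytosolic ribosomal proteins, 8 (17.4%, 9.09% to 30.7%) held a member. Their eligible introns were short, with a median of 1.41 kb against 10.2 kb for all genes, and per length they held 6.27 members per 100 kb. RPS3 and RPL26L1 had 2 members each. Of 39 genes of mitochondrial ribosomal proteins, 15 (38.5%) held a member, led by MRPS35 with 8 (8 to 20 reads).

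Genes of the respiratory chain (23 of 48, 47.9%) and the proteasome (12 of 27, 44.4%) were near the share of all genes. SDHC, the membrane anchor of succinate dehydrogenase, had 6 members from 3 to 12 reads, and PSMC6, a proteasome ATPase, 3 from 9 to 18 reads. Translation initiation factors had members in 17 of 31 genes (54.8%, 37.8% to 70.8%), with 5 each in EIF2S1 and in EIF4E, which binds the mRNA cap. Members were thus found in all these housekeeping families, with the ribosomal protein genes lowest by share.

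Of the genes of SR proteins, hnRNPs and snRNP proteins, 19 of 39 (48.7%) held a member, near the share of all genes. At 11.8 per 100 kb they were the densest of the families, followed by the translation initiation factors at 10.7. The highest TES pileup of these genes had a median of 41 reads, against 24 for all genes counted. Its part in the density was not tested. SRSF4, an SR splicing factor, had 6 members, all in intron 1, with pileups of 5, 11, 12, 15, 19 and 12 reads in order along chromosome 1. An Alu word lay at 5 of the 6. The list of tubulin and tubulin complex genes had members in 8 of 13 (61.5%, 35.5% to 82.3%). Of 261 zinc finger genes with names in ZNF, 144 (55.2%, 49.1% to 61.1%) held a member, at 8.50 per 100 kb, and ZNF566 had the most, with 7.

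Among genes that mark noradrenergic neuroblastoma cells, 7 of 18 (38.9%, 20.3% to 61.4%) held a member. GATA3 had 4, with 31, 11, 11 and 18 reads in gene order, LMO1, a transcriptional cofactor, had 2, and UCHL1, a neuronal ubiquitin hydrolase, 2 with 14 and 11 reads. Among genes of transcriptional kinases and cyclins, 5 of 11 (45.5%) held a member. CCNT2, a cyclin of the elongation kinase CDK9, had 4 with 11, 20, 9 and 9 reads, its relative CCNT1 3 from 9 to 17 reads, and CDK7, the kinase of TFIIH, 3 from 6 to 8 reads. None of the 4 members of CCNT2 had an Alu word or a core hexamer.

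Genes on 2 lists of the study were counted in the same way. The list of DNA damage response genes was compiled by the study from public databases. The list for premature cleavage and polyadenylation came from its own sequencing of nascent RNA after a kinase inhibitor. That list comes from the same study and cell line as these peaks, though from another assay, and was used for counting only. Of 70 DNA damage response genes under 50 kb, 36 (51.4%, 40% to 62.8%) held a member, at 10.2 per 100 kb. RAD23B, a partner of the nucleotide excision repair factor XPC, had 7 members from 6 to 19 reads. XRCC6, the Ku70 subunit of end joining, had 7 with 16, 9, 7, 15, 11, 14 and 11 reads in gene order, and EXO1, an exonuclease of mismatch repair and recombination, 6 from 10 to 22 reads. Of 281 genes that the study listed for premature cleavage and polyadenylation, 179 (63.7%, 57.9% to 69.1%) held a member. These genes had longer eligible introns (median 16.9 kb), and per length they held 9.87 members per 100 kb.

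Within genes, the share of members in the first intron was slightly above its share of the eligible length. Of 6704 members in an intron of the canonical transcript, 1938 were in the first intron, or 28.9% (27.8% to 30%). The first intron made up 26.6% of the eligible length of these introns, and 24.9% of A-poor peaks lay there. The last intron held 10.4% of members. In 4 equal parts of the gene from its start, 29.1%, 34.1%, 26.5% and 10.3% of members were found. The 174 members upstream of the canonical start were counted in the first part, and the eligible length of each part was not measured. The rule itself takes away the 2 kb next to the start and the windows at transcript ends, so these shares describe what remains.

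The strand taken from the gene was checked with the other edge of each peak. Of the 10959 eligible intronic peaks, 6945 had at least 7 A past the gene-strand edge only, 619 past the other edge read on the opposite strand only, and 78 past both. The A-rich side was therefore the 3′ side of the gene in most peaks that had one. Of the A-poor peaks, 15.7% had an A-rich other edge, and transcription from the opposite strand at those peaks was not tested.

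The study's filter for false positive ends was computed here from the 3′ edge of each peak. It takes 25 bases of which no more than 3 differ from A inside the 50 bp downstream. Together with none of the 12 hexamers within 100 bp upstream, it would remove 837 members, or 11.9% (11.2% to 12.7%). The stretch alone was present in 972 (13.8%). Of members with an Alu word, 21.4% would be removed, and of the others 9.41%. The study describes its hexamer window as 100 bp upstream of the peak, so a hexamer further upstream may have kept some of these peaks. They are present in the deposited list, and whether the list precedes the filter was not tested. As computed here, 88.1% of the members would have passed it.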

How the data were processed

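Poly(A) 3′-seq (QuantSeq REV) of IMR-32 cells was analysed from the single peak list of the series. The authors trimmed the reads, mapped them to GRCh38 with STAR 2.5.1b, downsampled libraries that had been processed in different batches, merged them and called peaks with MACS2 2.1.1, extending each read to 100 bp. Each deposited fold is the ratio of summit pileup to local background, each with 1 added, and the deposited p-value and q-value are given as −log10. The depth per library is unknown from the list, so only counting error over peaks is given.

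From these, the whole-number pileup at each summit was recovered as the one whose Poisson tail, at the background implied by the fold, met the −log10 p-value (largest miss 0.000168). It was tested on simulated data. Summits were placed on GENCODE 44 (the study used an earlier release), in the longest protein-coding gene covering the summit, and sequence was read from GRCh38. Shares have 95% Wilson intervals and differences of shares 95% Newcombe intervals. No test over replicates was possible.

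The members and gene lists were chosen with earlier results of these data known. Genes were named by a rule: the 10 with the most members (ties by density per eligible intron), those of the 10 highest pileups and 5 longest runs, and the 3 with the most members per list. The genes of the highest members with an intronic edge were added after their values were seen. Alternatives changed the q-value limit, the A limit, the gene length limit, the merging of peaks and the motifs. Python 3.11.15 with numpy 2.4.6, pandas 2.3.3, scipy 1.17.1 and matplotlib 3.10.9 was used.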

Additional observations from a re-analysis of the deposited data

How the results depend on the processing

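No paired analysis was possible because the peaks were called on merged reads and the list holds no value per library, and no replicate could be left out for the same reason. Differences from A-poor peaks in the share with a core hexamer and with an Alu word kept their direction under every alternative run on them. Their intervals did not include 0. The Alu difference (18.9 points) was 6.76 with a shorter word and 8.77 when a −log10 q-value of 20 was required. Its direction was partly set in advance, because the A limit of the rule favours these words. The small difference from A-poor peaks in the share with at least 10 reads (-2.11 points) did not keep its interval away from 0 with at least 8 A (-1.52), in genes under 25 kb (-1.93) or, chosen after seeing the data, without peaks ending in an exon (-1.40). With only the highest peak kept per gene and class it was 4.84, and the difference from A-rich peaks of genes over 300 kb (16.2) was -17.5. That alternative keeps the highest of several peaks, and so by construction raises the class with more peaks per gene. The cause of the other changes was not tested. Against A-poor peaks it was -5.13 when a −log10 q-value of 5 was required, and against the long genes it was 1.93 at a limit of 20 reads. The number of members was 114 when a −log10 q-value of 20 was required, 1802 in genes under 25 kb and 3239 with 1 peak per gene. At that q-value every compared peak had at least 15 reads, so neither pileup difference has a value there. The filter of the study, as computed here, would then remove 2.63% of members. At the same limit 1.66% of genes held a member and 27.4% of members lay in the first intron. The filter's share was 15.1% with at least 8 A, 13.3% in genes under 25 kb and 28.0% with at most 5 mismatches. The share of genes with a member was 40.3% when 5 was required instead, 42.4% with at least 8 A, 29.1% in genes under 25 kb and 45.9% without summits where another gene lies on the same strand.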
